A study of Mus musculus with 4 samples.

Results

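Expression was described for 9 genes of the sodium channel, sodium pump, chloride channel and water channels that move salt and water across the alveolar and airway wall: Scnn1a, Scnn1b, Scnn1g, Atp1b1, Cftr, Aqp1, Aqp3, Aqp4 and Aqp5. They were listed by name and found as the transcript clusters annotated to exactly 1 of these symbols. All 9 of 9 were measured, each by 1 transcript cluster, among 30140 genes in all. RNA came from lung cells that lack CD45, the surface marker of leukocytes, of C57BL/6 mice, and was hybridised to 1 Affymetrix array per sample. The groups were 2 BLM arrays, from mice given bleomycin into the trachea 10 days earlier, and 2 PBS arrays, from mice given saline by the same route and taken at the same time. Bleomycin damages DNA and is used to produce lung injury and fibrosis in mice.

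Fluid is cleared from the air spaces by sodium transport. Sodium enters epithelial cells through the epithelial sodium channel, whose alpha, beta and gamma subunits are encoded by Scnn1a, Scnn1b and Scnn1g, and is pumped out on the other side by the sodium-potassium pump. Water follows the salt, in part through aquaporins. CFTR, a chloride channel opened by cyclic AMP signalling, carries chloride in either direction and is known for its loss in cystic fibrosis.

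Levels are the deposited log2 values, and a difference is BLM minus PBS in log2 units with its standard error (SE) from limma, n = 2 arrays per group. Rose and fell are used of genes past an adjusted p of 0.05 over all 30140 genes. In that fit 7629 genes passed (25.3%), 4582 of them higher (15.2%) and 3047 lower (10.1%) in BLM; the split was 3826 higher and 3890 lower after cyclic loess scaling. Leaving out 1 BLM array lowered the total to 4005 (replicate 1) or 4380 (replicate 2). The median difference of all genes was 0.05. The scale reaches 19.87, above the log2 range of a common scanner, through a step that is not stated, so a percentage of the PBS level takes the deposited values as plain log2 levels. Xist, the RNA of the inactive X chromosome in female cells, lay at 5.60 and 5.43 on the BLM arrays, against 15.86 and 15.61 on the PBS arrays, while Eif2s3y, Kdm5d and Uty of the Y chromosome lay at 8.02 to 9.09 in BLM against 5.74 to 6.88 in PBS. The labels give no sex, and in every difference given here bleomycin and this difference between the groups cannot be told apart. Separate animals are not stated for the 2 arrays of a group, and p-values therefore rest on a spread that may be technical only. In a mix of cell types such as this, fewer cells of a type and less RNA per cell cannot be told apart.

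Of the 9 genes, 3 fell in BLM, Atp1b1, Scnn1a and Cftr, and 6 did not pass. None rose. The share that fell, 33.3%, stands beside 10.1% of all genes, and the share called in either direction beside 25.3%. Calls were more common among brighter genes. In a fit of only the 15070 genes above the median level, 8050 passed, 3307 of them lower. Of the 9 genes, 8 were in that fit and 3 passed, all lower. Among these brighter genes, the share called in either direction was thus lower for the 8 than for all genes. The share that fell was higher. The median difference of the 9 was -0.18, against 0.05 over all genes. The falls were large: each of the 3 genes differed by more than 1 log2 unit, as did 2.33% of all genes in the downward direction and 5.14% in either direction. The 6 others lay between -0.22 and 0.19. The 9 genes were chosen with earlier results of these data known.

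The arrays carry 5222 control features named as negative. Their median was 6.01 and 5.99 on the BLM arrays, against 6.16 and 6.21 on the PBS arrays, and 95% of them lay below 10.26 to 10.34 in BLM and 10.56 to 10.62 in PBS. Atp1b1, Scnn1a and Aqp1 lay above that 95% mark on every array. Scnn1b, Scnn1g, Cftr, Aqp3, Aqp4 and Aqp5 lay below it on every array, within the range of the negative features, and their differences may understate changes of RNA.

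**Figure D1:**
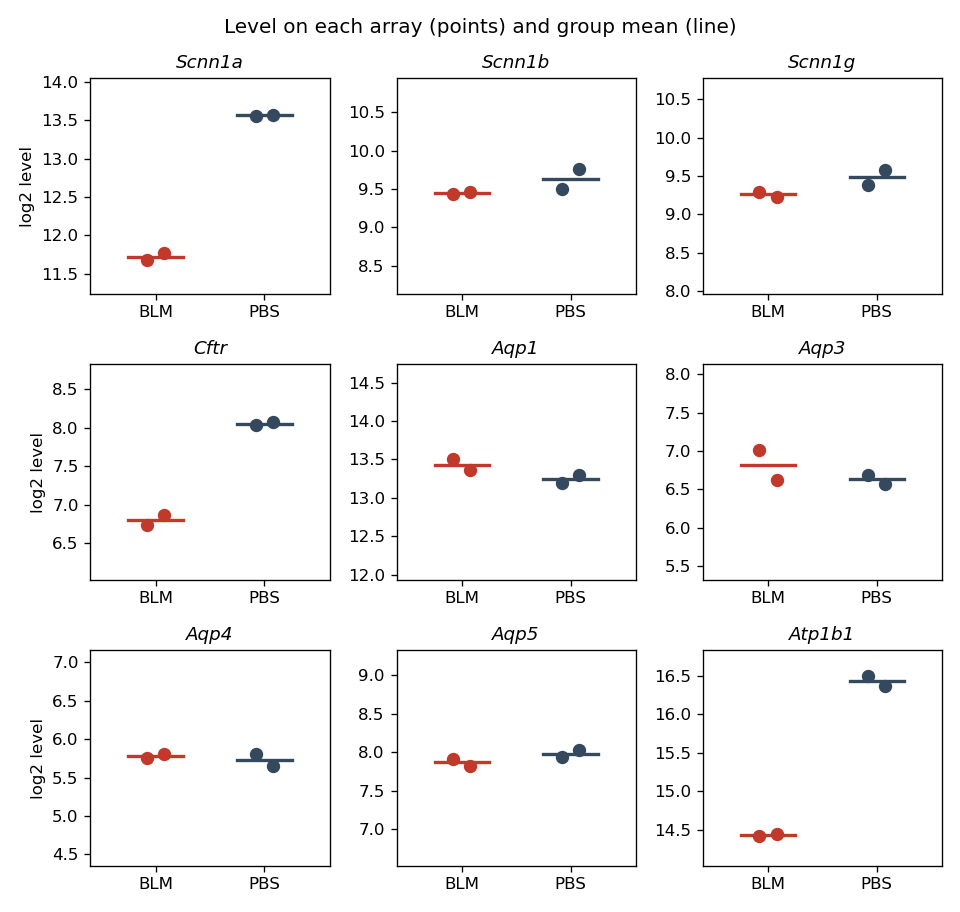
Log2 level (vertical axis, each panel spanning the same range) of each of the 9 genes on the 2 BLM and 2 PBS arrays, with points for arrays and lines for group means. Scnn1a, Cftr and Atp1b1 show BLM points well below the PBS points, whereas the points of the other 6 genes lie close together.

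Of the 3 sodium channel subunit genes, Scnn1a fell, and Scnn1b and Scnn1g did not pass. Scnn1a encodes the pore-forming alpha subunit, without which mice cannot clear fluid from the lung at birth. It lay at 11.68 and 11.77 on the BLM arrays, against 13.55 and 13.57 on the PBS arrays. Both BLM values were below both PBS values, by far more than the arrays of a group differed from each other. Scnn1a fell by 1.84 (SE 0.08, 95% interval -2.05 to -1.63, adjusted p = 0.000393), which puts BLM at 27.9% of the PBS level.

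Scnn1b, the beta subunit gene, lay at 9.43 and 9.46 on the BLM arrays, against 9.50 and 9.76 on the PBS arrays. The groups did not overlap, as for 63.3% of all genes, but the nearest values differed little. The difference was -0.18 (SE 0.11, 95% interval -0.47 to 0.10, adjusted p = 0.307), and it stood at -0.05 without PBS replicate 2 and at -0.31 without PBS replicate 1. Scnn1g, the gamma subunit gene, lay at 9.29 and 9.23 on the BLM arrays, against 9.38 and 9.58 on the PBS arrays. Its difference was -0.22 (SE 0.10, 95% interval -0.47 to 0.03, adjusted p = 0.175), and -0.13 without PBS replicate 2. Both intervals end at -0.47, but both genes lay within the range of the negative control features, unlike Scnn1a, so the intervals bound the measured values and not the change of RNA.

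Taken within each array, the level of Scnn1a relative to Scnn1b was lower by 1.66 log2 units in BLM, and relative to Scnn1g by 1.62, with no overlap between groups. The exact permutation test gave p = 0.333 for each (two-sided, adjusted p = 0.378 over 17 such pairs, which were chosen after the values were seen), the smallest that 2 against 2 arrays allow. As the beta and gamma values lie within the range of the negative features, these sizes describe the measured values only. Scnn1b relative to Scnn1g differed by 0.04 between BLM and PBS (exact p = 0.667). The genes of the beta and gamma subunits are neighbours on chromosome 7, adjacent among the protein-coding genes of the RefSeq table (GRCm38.p6), and Scnn1a is on chromosome 6.

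Atp1b1 encodes the beta-1 subunit of the sodium-potassium pump, which helps to bring the pump to the cell membrane. It lay at 14.42 and 14.44 on the BLM arrays, against 16.50 and 16.37 on the PBS arrays. Among the 9 genes it had the lowest difference, -2.01 (SE 0.09, 95% interval -2.24 to -1.79, adjusted p = 0.000375), or 24.8% of the PBS level. Counted from the greatest fall, it stood at place 100 among 30140 genes, and Scnn1a at place 141. Atp1b1 shares part of its locus on chromosome 1 with Nme7, a gene active in cilia, which lay at 8.57 and 8.68 on the BLM arrays, against 8.90 and 8.88 on the PBS arrays (difference -0.26, adjusted p = 0.0822).

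Cftr, the chloride channel gene, lay at 6.74 and 6.86 on the BLM arrays, against 8.03 and 8.08 on the PBS arrays, again with no overlap. Cftr fell by 1.26 (SE 0.09, 95% interval -1.48 to -1.03, adjusted p = 0.000922), to 41.9% of the PBS level. The genes Foxi1 and Ascl3, transcription factors of ionocytes, the rare airway cells rich in CFTR, did not pass, at 0.21 (adjusted p = 0.125) and -0.14 (adjusted p = 0.469), and both had levels under 7 on every array.

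**Figure D2:**
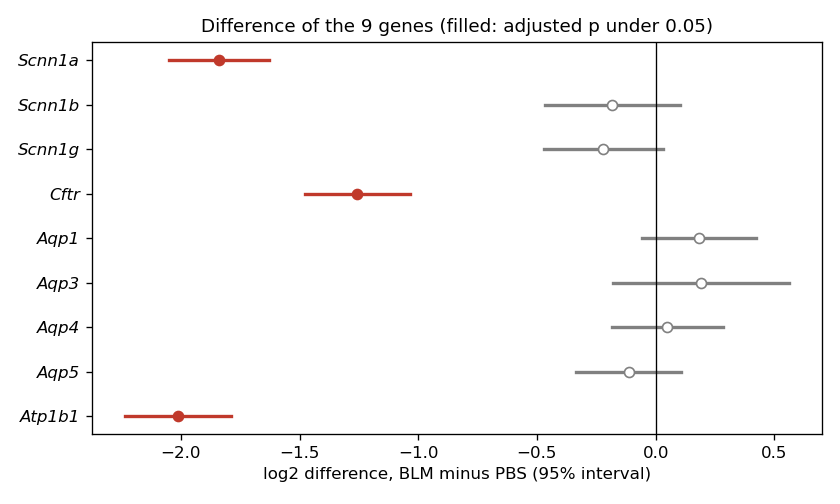
Log2 difference, BLM minus PBS (horizontal axis), of each of the 9 genes with its 95% interval from limma; filled points passed an adjusted p of 0.05. Scnn1a, Cftr and Atp1b1 lie between -2.01 and -1.26, and the intervals of the other 6 genes include 0.

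None of the 4 aquaporins passed. Aqp1, the water channel of capillary endothelium, lay at 13.50 and 13.36 on the BLM arrays, against 13.20 and 13.29 on the PBS arrays. The BLM values were the higher ones, by 0.18 (SE 0.09, 95% interval -0.06 to 0.42, adjusted p = 0.232), but the sign turned after cyclic loess scaling (-0.0021). Of 6 endothelial markers, 2 rose and 4 did not pass, with a median of 0.28 and a mean level of 13.14 to 13.35 in BLM against 12.87 to 13.01 in PBS. Of the 7 listed markers of red blood cells, which also carry this channel, 3 were measured, and none passed, with a mean level of 5.33 to 5.37 in BLM against 5.29 to 5.39 in PBS. Within each array, Aqp1 relative to the mean of the endothelial markers was lower by 0.12 log2 units in BLM, without overlap (exact permutation p = 0.333, the smallest possible). Lists of capillary cells gave other values. General capillary markers rose in 3 of 4 cases (median 1.15) and 1 fell, with a mean level of 11.753 to 12.0005 in BLM against 10.63 to 10.95 in PBS, and Aqp1 relative to their mean was lower by 0.91 in BLM. Of 3 markers of Car4-positive capillary cells, 1 rose, 1 fell and 1 did not pass, with a mean level of 9.850 to 10.002 in BLM against 9.76 to 9.97 in PBS, and Aqp1 relative to their mean was higher by 0.12. The direction of Aqp1 against endothelium thus depended on the list, and the part of cell numbers in these values was not tested.

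Aqp5, the water channel of the surface of alveolar type 1 cells, lay at 7.91 and 7.83 on the BLM arrays, against 7.94 and 8.03 on the PBS arrays. Its difference was -0.11 (SE 0.09, 95% interval -0.33 to 0.11, adjusted p = 0.409). Its values lay within the range of the negative control features, so the interval does not bound the change of its RNA. Alveolar type 1 markers gave 1 rise and no fall among 6, with a mean level of 11.99 to 12.04 in BLM against 11.66 to 11.88 in PBS. Relative to the mean of those markers Aqp5 was lower by 0.36 log2 units in BLM, again without overlap (exact permutation p = 0.333, the smallest possible).

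Aqp3, a channel for water and glycerol found in airway basal cells, lay at 7.02 and 6.63 on the BLM arrays, against 6.69 and 6.57 on the PBS arrays, and the groups overlapped. The difference of 0.19 (SE 0.15, adjusted p = 0.412) rested on 1 array, as leaving out BLM replicate 1 gave -0.0034 and leaving out BLM replicate 2 gave 0.38. Of 3 basal cell markers, 1 fell (Krt15, by 1.18, adjusted p = 0.00228) and 2 did not pass (median of the 3, -0.33). Aqp4, a water channel of the basolateral membrane of airway epithelium, lay at 5.76 and 5.80 on the BLM arrays, against 5.81 and 5.65 on the PBS arrays, also overlapping. Its values lay below the median of the negative control features on every array, so a change of its RNA may go unseen there. The difference was 0.05 (SE 0.09, adjusted p = 0.753), and -0.028 without PBS replicate 2.

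By level, Atp1b1, Aqp1 and Scnn1a stood at the 99.1, 97.6 and 96.7 percentile of the mean levels of all genes, and Scnn1b and Scnn1g at 86.3 and 85.2. Aqp5, Cftr, Aqp3 and Aqp4 followed at 72.6, 67.4, 59.2 and 46.0. Probes differ in brightness, so this order is one of brightness and not of the amount of RNA. Of the 3 genes above the 95% mark of the negative control features, Atp1b1 and Scnn1a fell and Aqp1 did not pass. Of the 6 below it, only Cftr fell.

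Promoters are shown for Cftr and Atp1b1, which fell together, and for Scnn1g and Scnn1b, the subunits whose difference did not pass. RefSeq promoter entries (GRCm38.p6) were at hand for 7 of the 9 genes, but not for Scnn1a, which also fell, or for Aqp4. Each line gives the 250 bases before the start, 5′ to 3′ on the gene's strand, with capitals for any match to the motifs searched on either strand. Atp1b1 is read from chr1:164458356-164458605 on the minus strand, and Cftr from chr6:18170437-18170686, Scnn1g from chr7:121734229-121734478 and Scnn1b from chr7:121864788-121865037 on the plus strand.
Atp1b1: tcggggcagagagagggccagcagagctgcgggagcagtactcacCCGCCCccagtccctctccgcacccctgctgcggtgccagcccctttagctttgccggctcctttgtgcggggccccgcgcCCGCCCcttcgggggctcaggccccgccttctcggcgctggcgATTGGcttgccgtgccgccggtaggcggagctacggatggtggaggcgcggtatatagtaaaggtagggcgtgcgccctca
Cftr: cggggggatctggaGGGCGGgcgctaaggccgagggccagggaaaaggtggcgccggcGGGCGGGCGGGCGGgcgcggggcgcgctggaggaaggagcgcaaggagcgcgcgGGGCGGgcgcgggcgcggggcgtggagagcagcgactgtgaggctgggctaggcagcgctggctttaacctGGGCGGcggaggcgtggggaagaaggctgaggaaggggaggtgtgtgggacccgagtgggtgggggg
Scnn1g: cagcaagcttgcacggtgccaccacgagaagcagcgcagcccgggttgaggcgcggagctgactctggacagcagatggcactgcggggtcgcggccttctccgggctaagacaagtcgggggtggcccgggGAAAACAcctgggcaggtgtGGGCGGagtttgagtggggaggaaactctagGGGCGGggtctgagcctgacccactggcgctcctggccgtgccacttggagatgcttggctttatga
Scnn1b: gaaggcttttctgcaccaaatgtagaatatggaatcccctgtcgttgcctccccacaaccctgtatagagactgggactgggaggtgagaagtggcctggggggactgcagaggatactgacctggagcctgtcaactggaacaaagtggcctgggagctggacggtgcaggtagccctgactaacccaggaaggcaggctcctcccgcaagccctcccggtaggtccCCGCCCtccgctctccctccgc

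The 8 motifs were the GC box GGGCGG, the TATA box TATAAA, the CCAAT box, the cyclic AMP response element TGACGTCA, the AP-1 site TGANTCA, the glucocorticoid receptor motif AGAACA, the FOXA core TGTTTNC and the TEAD core GGAATG. No match overlapped one of a different motif. The GC box was present in all 7 promoters and in 32.7% of 32851 promoters of the same length, and the 7 were rich in G and C, at 60.8% to 78.4% against a median of 52.4%. Cftr held 6 copies, 3 of them overlapping in 1 run, while Atp1b1 and Scnn1g held 2 each and Scnn1b held 1. The CCAAT box was found in Atp1b1 alone among the 7, on the opposite strand, starting 81 bases before the start, and in 33.8% of all promoters. The FOXA core was found only in Scnn1g of the 7 (17.8% of all) and the TATA box only in Aqp3 (12.4% of all). The cyclic AMP, AP-1, glucocorticoid receptor and TEAD motifs had 0 matches in the 7 windows, against 1.55%, 6.75%, 16.1% and 12.6% of all promoters.

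Related genes of salt and water transport gave falls and rises in equal number. Of 73 genes in 7 lists, 61 were measured, of which 18 rose, 18 fell and 25 did not pass. That is 59.0% called, beside 25.3% of all genes, with a median difference of 0.04. The count was 22 without BLM replicate 1. In the fit of only the 15070 genes above the median level, 34 of 42 related genes passed, beside 8050 of all genes there. Of the 73 listed genes, 12 were not analysed here. These lists were drawn up with earlier results of these data known, so the choice may not be free of them.

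**Figure D3:**
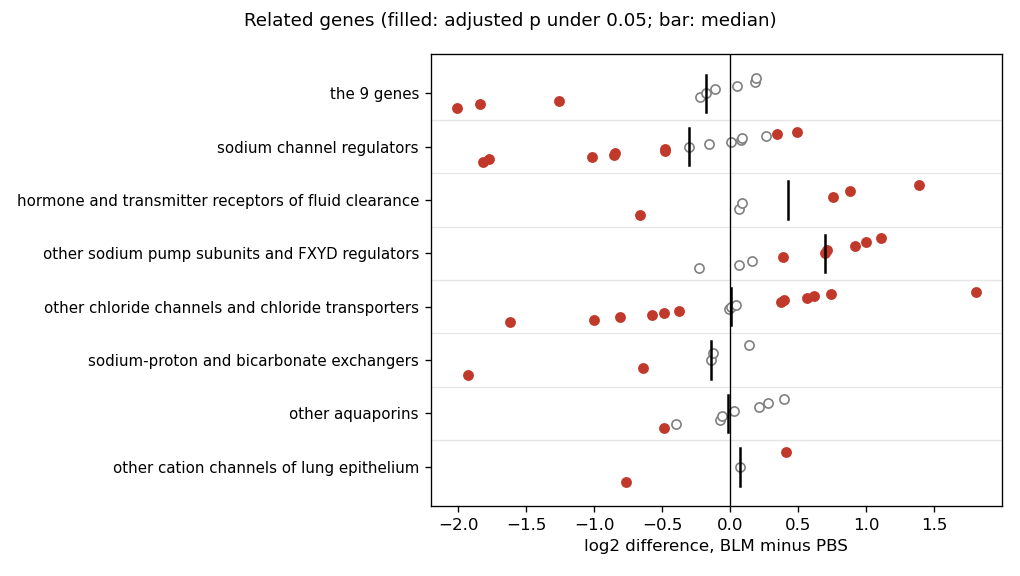
Log2 difference, BLM minus PBS (horizontal axis), of the 9 genes and of 7 lists of related genes, with 1 point per gene, filled where the adjusted p was under 0.05, and a bar at the median. Sodium channel regulators lie mostly to the left of 0 and the other pump subunits mostly to the right.

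Among 15 regulators of the sodium channel, 7 fell, 2 rose and 6 did not pass (median -0.30). Neither rise held throughout when each array was left out in turn, and some of the falls also lost their call. The deepest falls were those of channel-activating proteases. Tmprss4, a membrane protease that can activate the channel, fell by 1.82 (SE 0.09, adjusted p = 0.000418). Prss8, prostasin, a protease that cleaves the channel's gamma subunit, lay at 8.89 and 8.52 on the BLM arrays, against 10.37 and 10.58 on the PBS arrays, and fell by 1.77 (SE 0.15, adjusted p = 0.00152). Spint2, an inhibitor of such proteases, fell by 0.85 (SE 0.09). Of the 15 regulators, 10 lay below the 95% mark of the negative control features on every array, Tmprss4, Spint2 and Sgk1 among them. Prss8 passed that mark on PBS replicate 2 only. Differences in that range may understate changes of RNA.

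Nedd4l, the ubiquitin ligase that removes the channel from the membrane, also fell, by 1.02 (SE 0.08, adjusted p = 0.00126), with 10.75 and 10.69 on the BLM arrays against 11.72 and 11.76 on the PBS arrays. Sgk1, the kinase that restrains that ligase, rose by 0.49 (SE 0.08, adjusted p = 0.00972), with 9.44 on both BLM arrays against 8.96 and 8.94 on the PBS arrays. With either BLM array left out Sgk1 no longer passed (adjusted p = 0.0633 for replicate 1 and 0.0603 for replicate 2). Genes known to raise channel activity stood among the falls and the rises, and Nedd4l, known to lower it, among the falls.

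Among receptors and enzymes of the hormones that act on fluid clearance, 6 of 10 listed genes were measured, and 3 rose and 1 fell. Nr3c2, the mineralocorticoid receptor, fell by 0.66 (SE 0.08, adjusted p = 0.00446), while Nr3c1, the glucocorticoid receptor, stood at 0.07 (SE 0.08, adjusted p = 0.613). Hsd11b1, which regenerates active glucocorticoid, rose by 1.39 (SE 0.18, adjusted p = 0.00474), with 9.70 and 9.67 on the BLM arrays against 8.04 and 8.55 on the PBS arrays. Hsd11b2, which inactivates it, rose by 0.88 (SE 0.08), and the nucleotide receptor gene P2ry2 by 0.76 (SE 0.11). All 6 measured genes lay below the 95% mark of the negative control features on every array. Hsd11b2 lay below the median of those features on the PBS arrays, at 6.08 and 6.03.

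Of 9 measured other pump subunits and FXYD regulators, small membrane proteins that tune the pump, 6 rose, none fell and 3 did not pass (median 0.70). Not all of these rises held when each array was left out in turn. Atp1b3, the beta-3 subunit gene, lay at 13.71 on both BLM arrays, against 12.93 and 13.10 on the PBS arrays, and rose by 0.70 (SE 0.10, adjusted p = 0.00603). Atp1b2, the beta-2 subunit gene, rose by 1.11 (SE 0.09, adjusted p = 0.0014). Fxyd1, phospholemman, rose by 0.998 (SE 0.11), Fxyd6 by 0.91 (SE 0.09) and Fxyd4 by 0.71 (SE 0.08). Of the 9, all but Atp1b3 and Fxyd1 lay below the 95% mark of the negative control features on every array. Fxyd4 lay below the median of those features on the PBS arrays, at 5.69 and 5.75. Within each array, Atp1b1 relative to Atp1b3 was lower by 2.71 log2 units in BLM, with no overlap (exact permutation p = 0.333, the smallest possible).

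Chloride channels and transporters other than Cftr split evenly, with 6 rising, 6 falling and 3 not passing of 15. Some of the rises and some of the falls lost their call when each array was left out in turn. Slc26a9, a chloride channel and exchanger that works with CFTR, lay at 12.09 and 11.92 on the BLM arrays, against 13.67 and 13.57 on the PBS arrays, and fell by 1.62 (SE 0.10, adjusted p = 0.000647). Slc12a2, the sodium-potassium-chloride carrier that loads cells with chloride, fell by 0.999 (SE 0.09, adjusted p = 0.00154), and Slc9a3r1, a scaffold protein that binds CFTR, by 0.81 (SE 0.10). Slc26a4, pendrin, an anion exchanger, rose by 1.81 (SE 0.08, adjusted p = 0.000386), with 9.31 and 9.28 on the BLM arrays against 7.46 and 7.51 on the PBS arrays. The calcium-activated chloride channel gene Ano1 rose by 0.74 (SE 0.10, adjusted p = 0.00505). Of the 15 genes, 11 lay below the 95% mark of the negative control features on every array, Slc26a4 and Ano1 among them. Slc26a6, counted among the 6 rises, lay below the median of those features on every array. Clca1, also among the rises, lay below it on the PBS arrays, at 5.41 and 5.62.

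Of 5 measured exchangers of protons and bicarbonate, 2 fell and 3 did not pass. All 5 lay below the 95% mark of the negative control features on every array. The sodium bicarbonate cotransporter genes Slc4a5 and Slc4a4 fell by 1.92 (SE 0.10, adjusted p = 0.000494) and 0.64 (SE 0.08, adjusted p = 0.00521). Of 8 other aquaporins, 7 lay below the median of the negative control features on every array and Aqp11 on some, so changes of their RNA may go unseen there. Aqp9, which also carries glycerol and was among the 7, was the 1 gene of the list past the threshold, at -0.49 (adjusted p = 0.027), a call that 3 of the 4 single-array omissions removed (adjusted p = 0.0808 without PBS replicate 1, 0.085 and 0.125 with BLM replicate 1 or 2 left out). Aqp2 and Aqp6, which flank Aqp5 on chromosome 15 and were named after their values were seen, stood at 0.39 (adjusted p = 0.0725) and 0.03 (adjusted p = 0.869). Among 3 other cation channels, the calcium channel gene Trpv4 fell by 0.76 (SE 0.13, adjusted p = 0.013) and the stretch-activated channel gene Piezo1 rose by 0.41 (SE 0.08, adjusted p = 0.02). All 3 lay below the 95% mark of the negative control features on every array. Omitting either BLM array took Trpv4 out of the called genes (adjusted p = 0.0623 for replicate 1 and 0.0521 for replicate 2), and omitting any 1 array did so for Piezo1 (adjusted p 0.0569 to 0.123).

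Markers of the cells that carry these genes moved on the same arrays. Alveolar type 2 markers fell in 7 of 8 cases, with a mean log2 level of 15.34 to 15.42 in BLM against 16.35 to 16.41 in PBS. Of 5 markers of epithelium in general, 2 fell (Epcam by 0.96 and Cdh1 by 0.69), 1 rose (Krt18, by 0.30) and 2 did not pass, with mean levels of 11.88 to 11.96 in BLM against 12.23 to 12.27 in PBS. All 3 club cell markers fell, with mean levels of 15.14 in BLM against 16.35 to 16.37 in PBS, and all 3 measured ciliated cell markers fell, with mean levels of 7.95 to 8.04 in BLM against 9.70 to 9.74 in PBS.

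**Figure D4:**
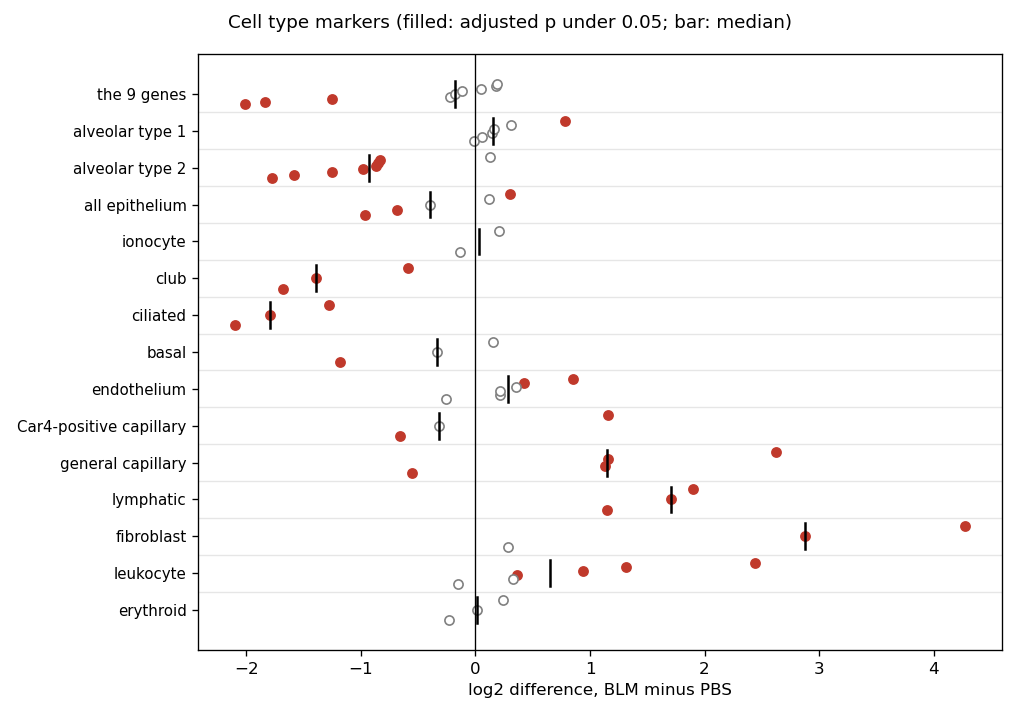
Log2 difference, BLM minus PBS (horizontal axis), of the 9 genes and of 14 lists of cell type markers, with 1 point per gene, filled where the adjusted p was under 0.05, and a bar at the median. Alveolar type 2, club and ciliated markers lie mostly to the left of 0, and alveolar type 1 markers near 0.

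Within each array, the 3 genes that fell were also lower relative to the mean of the alveolar type 2 markers, Atp1b1 by 1.01, Scnn1a by 0.84 and Cftr by 0.25 log2 units in BLM against PBS. That mean holds Sftpc, the brightest of the 8 markers, at 19.86 and 19.82 on the BLM arrays against 19.56 and 19.87 on the PBS arrays, the 1 marker that did not pass. Without Sftpc, an alternative chosen after the data were seen, Atp1b1 was lower by 0.85 and Scnn1a by 0.68, with no overlap, while Cftr stood at -0.09 with groups that overlapped (exact permutation p = 0.667). Relative to the mean of the 5 general epithelial markers they were lower by 1.69, 1.51 and 0.93. The groups did not overlap in these 3 ratios, each with an exact permutation p = 0.333, the smallest that 2 against 2 arrays allow. The 8 alveolar type 2 markers differed by -1.78 (Etv5) to 0.12 (Sftpc). The 5 general epithelial markers differed by -0.96 (Epcam) to 0.30 (Krt18). Ratios to either list thus depend on the markers in the mean. No ratio to club or ciliated markers was taken, whose median differences were -1.39 and -1.80. Atp1b1, Scnn1a and Cftr stood at -2.01, -1.84 and -1.26. The part that cell numbers had in the falls was not tested.

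Leukocyte markers rose in 4 of 6 cases, with mean levels of 6.969 to 6.996 in BLM against 6.10 to 6.12 in PBS. Ptprc, which encodes CD45 and by which the cells were separated, lay at 7.19 and 7.20 on the BLM arrays, against 6.30 and 6.21 on the PBS arrays, and rose by 0.94 (SE 0.08, adjusted p = 0.00166). Its PBS values were near the median of the negative control features. Fibroblast markers rose in 2 of 3 measured cases, by up to 4.28, with mean levels of 14.36 to 14.41 in BLM against 11.86 to 11.95 in PBS, and all 3 lymphatic endothelial markers rose, by 1.15 to 1.90. The part that leukocyte, fibroblast or lymphatic RNA had in the differences of the 9 genes was not tested.

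The genes whose profile over the 4 arrays lay closest to that of Atp1b1, by Euclidean distance after centring each gene on its mean, were Ppil6 (0.05), Ces1d (0.06) and Cfap161 (0.08), with differences of -2.03, -2.06 and -1.96. Of 29692 genes, 33 lay within a distance of 0.2. The closest to Aqp3, which had the highest difference of the 9, were Olfr1371, Gm24313 and Gm14390, at distances of 0.02 to 0.04, and 1273 genes lay within 0.2 of it. A profile over 4 arrays holds little beyond the size of a difference, so these likenesses are descriptions.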

How the data were processed

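Expression was measured in 4 samples, 2 BLM and 2 PBS by their titles. Each deposited value is a log2 level of 1 transcript cluster. The submitters' processing notes name RMA and Affymetrix Expression Console for the authors' processing. Their versions, the array build and any further scaling: not given in the sources used here. RMA subtracts background, brings the arrays to 1 distribution and joins probes, so a level is relative to the other genes of an array. Array medians over genes were 5.99 to 6.03 and the highest values 19.56 to 19.87, above a common scanner's log2 range. The number of arrays limits the precision.

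Of 72688 features, 65956 were transcript clusters, of which 30604 were annotated to 1 gene symbol, 2146 to several and 33206 to none here. A symbol listed more than once for a cluster counted once, and 833 symbols were updated through Entrez identifiers. Clusters with several symbols or none were left out. For 357 genes with more than 1 cluster, the one with the highest mean was kept, which gave 30140 genes, 29841 of them in the RefSeq table. None of the 9 genes shares its values with another gene.

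The test was limma's (version 3.58.1, R 4.3.3, functions lmFit and eBayes), two-sided, with group as the only term, an adjustment by Benjamini-Hochberg across the whole table and a threshold of 0.05. The fit had 2 residual and 3.33 prior degrees of freedom, and the 95% interval reached a median of 0.24 to either side. Single ratios were compared with an exact permutation test. Promoter windows came from RefSeq (GRCm38.p6).

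The members and lists were chosen with earlier results of these data known. The rule for naming took all 9 genes, a panel of 9 related genes of which 7 were measured, and per list up to 4 genes past the threshold with the greatest absolute difference. Markers are named where a result turns on them, and Slc26a6 and Clca1 for their low levels. The alternatives were a block for the replicate number, the omission of each array in turn, testing only genes above the median level, averaging a gene's clusters, a trended robust prior, median centring, cyclic loess and leaving out genes of chromosomes X and Y.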

Additional observations from a re-analysis of the deposited data

How the results depend on the processing

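Atp1b1, Scnn1a and Cftr were past the threshold and lower in BLM under all 11 alternatives, with differences of -2.19 to -1.95, -2.03 to -1.79 and -1.32 to -1.19, and none of the other 6 genes passed under any alternative that tested it. The nearest was Scnn1g with cyclic loess (adjusted p = 0.0505). The count of the 9 genes past the threshold was 3 under each alternative, also with each array left out. Signs turned for Aqp1 with cyclic loess (-0.0021), for Aqp3 without BLM replicate 1 (-0.0034, and 0.38 without BLM replicate 2) and for Aqp4 without PBS replicate 2 (-0.028, and 0.13 without PBS replicate 1). The cause was not tested. Aqp4 was too dim for the filter on dim genes. Of 36 related genes past the threshold, 22 kept their call in every alternative that tested them, and the count was 22 to 30 with an array left out, lowest without BLM replicate 1. For all genes, the count with an array left out was 4005 to 5957, with 4005 and 4380 without BLM replicates 1 and 2, fits with fewer samples. With the replicate number as a block, 3 of the 9 genes, 33 related genes and 6742 of all genes passed. The labels do not say whether same-numbered samples were paired. Across genes, the deviations of same-numbered arrays had a correlation of 0.01, which cannot decide it. Of the genes called, 60.1% were higher in BLM, and 49.6% with cyclic loess. At n = 2 per group, differences under 0.29 were not called for any gene, and differences of dim genes may be understated.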
